A study of Mus musculus with 12 samples.

Results

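Ak7 and Ak8 encode 2 adenylate kinases that differed from wildtype in opposite directions in brains lacking both copies of Gja9. They were selected on their deposited values in that contrast, and their probes are those that the probe table assigns to Ak7 or Ak8 alone and that have values in all samples. Each was read by 1 probe, which makes 2 of 13443 probes with values and 2 of 6427 measured genes. The arrays are spotted mouse cDNA arrays carrying 28704 probes, hybridised with total RNA of brain from C57Bl/6j mice at postnatal day 10. The 3 genotypes are wildtype, Gja9 (+/-), called Gja9_het, and Gja9 (-/-), called Gja9_null, with 4 samples each and no treatment. Under its current symbol, Gjd2, the targeted gene is known for connexin36, from which electrical synapses between neurons are built. No probe is named for it in the probe table, so its loss was not checked here, and the labels do not say how the allele was made. Each array carried a pair of samples of 1 genotype in opposite dyes, so the 12 samples lay on 6 arrays, 2 per genotype. Genotypes are thus compared over 2 arrays against 2. The members of each pair were inferred from likeness of the values, as described under the processing. Likeness alone does not prove a common array, so all results given by array rest on that inference. Under it, arrays are called 1 (samples 1 and 2) and 2 (samples 3 and 4).

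Adenylate kinases interconvert ATP, ADP and AMP, which keeps high-energy phosphate available where it is consumed and sets the AMP signal of low energy. Most members of the family serve the cytosol or the mitochondrion. Ak7 and Ak8 are best known from cells with motile cilia or flagella, which in brain are the ependymal cells lining the ventricles and, in part, the choroid plexus, and loss of Ak7 in mice is known for ciliary defects and hydrocephalus. In RNA of a brain, fewer cells of a type and less RNA per cell cannot be told apart.

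The promoters of both genes are printed to show what sequence lies before the start of each, since their values moved apart. They are the 250 bases upstream of the RefSeq start (GRCm38.p6, plus strand), at chr12:105705732-105705981 for Ak7 and chr2:28699911-28700160 for Ak8, written 5′ to 3′ with motif matches in capitals.
Ak7: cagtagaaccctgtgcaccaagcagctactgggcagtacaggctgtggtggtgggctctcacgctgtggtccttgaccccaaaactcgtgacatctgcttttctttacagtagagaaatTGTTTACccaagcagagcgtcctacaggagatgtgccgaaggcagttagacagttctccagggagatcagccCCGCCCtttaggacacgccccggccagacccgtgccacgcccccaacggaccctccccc
Ak8: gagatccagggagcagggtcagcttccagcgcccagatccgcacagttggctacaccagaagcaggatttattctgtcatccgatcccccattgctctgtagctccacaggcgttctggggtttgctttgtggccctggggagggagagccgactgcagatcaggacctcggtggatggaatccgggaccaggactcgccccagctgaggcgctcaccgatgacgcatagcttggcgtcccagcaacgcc
A search was made on both strands for GTTGCC (half-site of RFX factors), TGTTTAC (forkhead factors), CCAAT (the CCAAT box), TATAAA (the TATA box) and CCGCCC (the GC box). It found 1 TGTTTAC and 1 CCGCCC upstream of Ak7, which do not overlap. Upstream of Ak8 it found 0 matches of the 5 motifs. Of 32851 RefSeq promoters of this length, 3.2% held TGTTTAC, 32.7% CCGCCC, 10.4% GTTGCC, 33.8% CCAAT and 12.4% TATAAA. GC content was 58.4% for Ak7 and 61.2% for Ak8, against a median of 52.4%. These matches describe the letters only, and no binding was measured. Ak8 lies on chromosome 2, as does the targeted Gjd2, with 782 protein-coding genes between them in the RefSeq order, while Ak7 lies on chromosome 12.

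Ak7 signal was lowest in wildtype and highest in Gja9_null. Values are log2 signals relative to the mean signal of the same sample. In wildtype samples 1 to 4 Ak7 stood at 0.90, 0.95, -1.01 and -1.10. In Gja9_het it stood at 1.65, 1.92, 1.33 and 1.28, and in Gja9_null at 2.14, 2.38, 2.05 and 2.15. The 3 genotypes did not overlap in any sample. For Gja9_null and wildtype this is the contrast that selected the gene, and how many of all features likewise did not overlap was not counted. The wildtype arrays lay far apart from each other, with means of 0.93 and -1.06. That gap of 1.98 compares with 0.48 between the Gja9_het arrays and 0.16 between the Gja9_null arrays, and with at most 0.27 between the 2 colours of 1 array.

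The group means of Ak7 were -0.06 ± 1.14 in wildtype (SD, n = 4 samples on 2 arrays), 1.54 ± 0.30 in Gja9_het and 2.18 ± 0.14 in Gja9_null. Gja9_null exceeded wildtype by 2.24 ± 0.50 log2 units (SE), or 4.73-fold. This is the contrast that selected the gene, so it is given as a description with no test. The Gja9_het brains exceeded the same wildtype samples by 1.61 ± 0.50, or 3.05-fold. The selection used no Gja9_het sample but did use these wildtype samples, so the p-values of this comparison are not independent of it, for Ak7 or for Ak8. This did not pass over all features (adjusted p = 1, limma with Benjamini-Hochberg adjustment, unadjusted p = 0.00579). All 4 Gja9_het samples lay above all 4 wildtype samples, which was not counted over all features. An exact two-sided permutation of 2 arrays against 2 gave p = 0.333, the smallest this design allows. Gja9_null and Gja9_het, neighbours in the order of levels, differed by 0.63 ± 0.50, little more than the standard error.

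The size of the Ak7 difference rested on the wildtype arrays. Without wildtype array 2, Gja9_null exceeded wildtype by 1.25 and Gja9_het did by 0.62 (limma adjusted p = 1). Without wildtype array 1, the differences were 3.23 and 2.60. Wildtype is then a single array whose spread is assumed to be that of the other genotypes, and its values also selected the gene, so the limma adjusted p of 0.0361 for Gja9_het is no independent support. The direction was the same in both cases, as it had to be where all deposited wildtype values lay below those of the other genotypes. No further probe of Ak7 had values, so a second clone could not be compared.

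Ak8 signal was low in the Gja9_null samples and overlapped between the other genotypes. In wildtype samples 1 to 4 Ak8 stood at -2.48, -2.89, -2.25 and -2.50, and in Gja9_het at -3.01, -3.03, -2.14 and -2.32. In Gja9_null it stood at -4.66, -4.85, -4.47 and -4.80. All Gja9_null samples lay below all others, while wildtype and Gja9_het overlapped. The Gja9_null samples selected the gene, and how many of all features were separated in this way was not counted. The array means differed by 0.31 in wildtype, by 0.79 in Gja9_het and by 0.12 in Gja9_null, and those of the colours of 1 array by at most 0.41.

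The group means of Ak8 were -2.53 ± 0.27 in wildtype (SD, n = 4), -2.63 ± 0.46 in Gja9_het and -4.69 ± 0.17 in Gja9_null. Gja9_null was below wildtype by a log2 difference of -2.17 ± 0.35 (SE), a 4.49-fold lower signal, and below Gja9_het by -2.07 ± 0.35. Both differences rest on the Gja9_null samples that selected the gene and carry no test. Gja9_het differed from wildtype by -0.10 ± 0.35 (limma adjusted p = 1, unadjusted p = 0.781, exact permutation over arrays p = 1). The probe was dim: only 0.8% of probes with values had a lower mean over the samples, against 91.7% for the Ak7 probe. Signal over background cannot be read from the deposited values, so it is not known how far above background the Gja9_null signal lay. The dimmest 5% of probes, 673 in all, had a median difference of -0.59 between Gja9_null and wildtype (quartiles -1.08 and -0.16) and of 0.06 between Gja9_het and wildtype. After the local centring described below the medians of these dim probes were -0.28 and 0.06.

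The 2 probes differed in the values of their neighbours in probe number. Only probe numbers were used here, not spot positions. The Ak7 probe has number 17613. Its 43 neighbours with values within 50 probe numbers had a median difference of 0.06 between Gja9_null and wildtype (quartiles -0.10 and 0.27) and of 0.15 between Gja9_het and wildtype. All 43 lay below Ak7 in both comparisons. The selection of Ak7 for a large difference favoured this rank, and both comparisons share the wildtype samples, so it is a description. The probe next to it, of the phosphatase subunit gene Ppp4r2, differed by 0.50 in Gja9_null and 0.71 in Gja9_het, and Itgb1, an integrin gene 4 numbers before it, by 0.18 and 0.29. The neighbours deviated from their means over all samples by a median of 0.18 on wildtype array 1 and -0.25 on wildtype array 2. Ak7 had levels of 0.93 and -1.06 there, both below its own mean of 1.22 over all samples.

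The Ak8 probe has number 28637, close to the last of the 28704 numbers. Its 47 neighbours had a median difference of -1.12 between Gja9_null and wildtype (quartiles -1.55 and -0.92), and each of them was lower in Gja9_null, from -2.44 to -0.08. Of the 47, 1 lay below Ak8 and 46 above it, a rank that the selection of Ak8 in this contrast likewise favoured. Rnf44, which encodes a RING finger protein, is the adjoining probe and differed by -1.57. Hao2, of peroxisomal hydroxy acid oxidation, differed by -1.99 and Capn15, a calpain gene, by -1.77, while Paics, of purine synthesis, differed by -0.96. Between Gja9_het and wildtype the neighbours had a median of -0.23. The median deviation of the neighbours was -1.24 on Gja9_null array 1 and -0.20 on Gja9_null array 2, against 0.09 to 0.57 on the 4 other arrays. The stretch was lowest on 1 array.

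**Figure D1:**
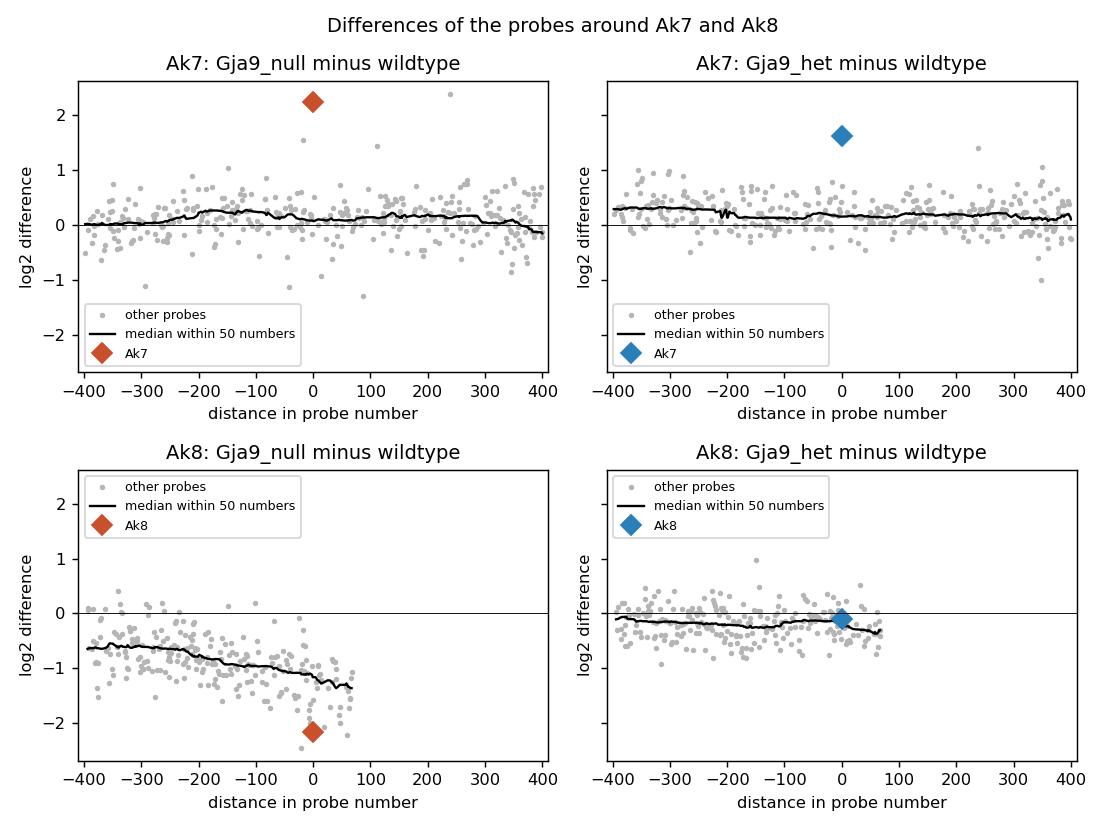
Difference from wildtype in log2 units of each probe (grey), against its distance in probe number from the Ak7 probe (top) or the Ak8 probe (bottom), for Gja9_null (left) and Gja9_het (right). The line is the median within 50 probe numbers and the diamond is the member. Ak7 stands at 2.24 and 1.61, above all 43 of its neighbours, a rank that its selection favoured. In Gja9_null the probes around Ak8 have a median of -1.12.

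Both probes were therefore also read after local centring, which subtracts from each sample the median deviation of the probes within 50 numbers on either side. Ak7 then stood at 0.70, 0.86, -0.76 and -0.82 in wildtype samples 1 to 4, at 1.63, 1.94, 1.15 and 1.18 in Gja9_het and at 2.22, 2.41, 1.97 and 2.07 in Gja9_null. The genotypes still did not overlap, again without a count over all features, and the wildtype arrays still differed by 1.57. Gja9_null exceeded wildtype by 2.17 ± 0.38 (SE) on this scale, a 4.50-fold difference, and Gja9_het did by 1.48 ± 0.38 (limma adjusted p = 0.272, unadjusted p = 0.00178). With wildtype array 2 left out as well, an alternative chosen after seeing the data, these were 1.41 and 0.69.

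Ak8 lost more than a log2 unit of its difference under the same step. Its locally centred values were -3.05, -3.44, -2.57 and -2.82 in wildtype, -3.45, -3.53, -2.23 and -2.42 in Gja9_het and -3.47, -3.47, -4.25 and -4.60 in Gja9_null. Gja9_null array 1, with a mean of -3.47, now lay at the level of Gja9_het array 1, with -3.49, so that only Gja9_null array 2, with -4.42, stood below all other arrays. The difference between Gja9_null and wildtype was -0.98 ± 0.37 (SE), or 1.97-fold lower, and that between Gja9_null and Gja9_het -1.04 ± 0.37. Between Gja9_het and wildtype the sign turned, at 0.06 ± 0.37 (limma adjusted p = 0.982).

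**Figure D2:**
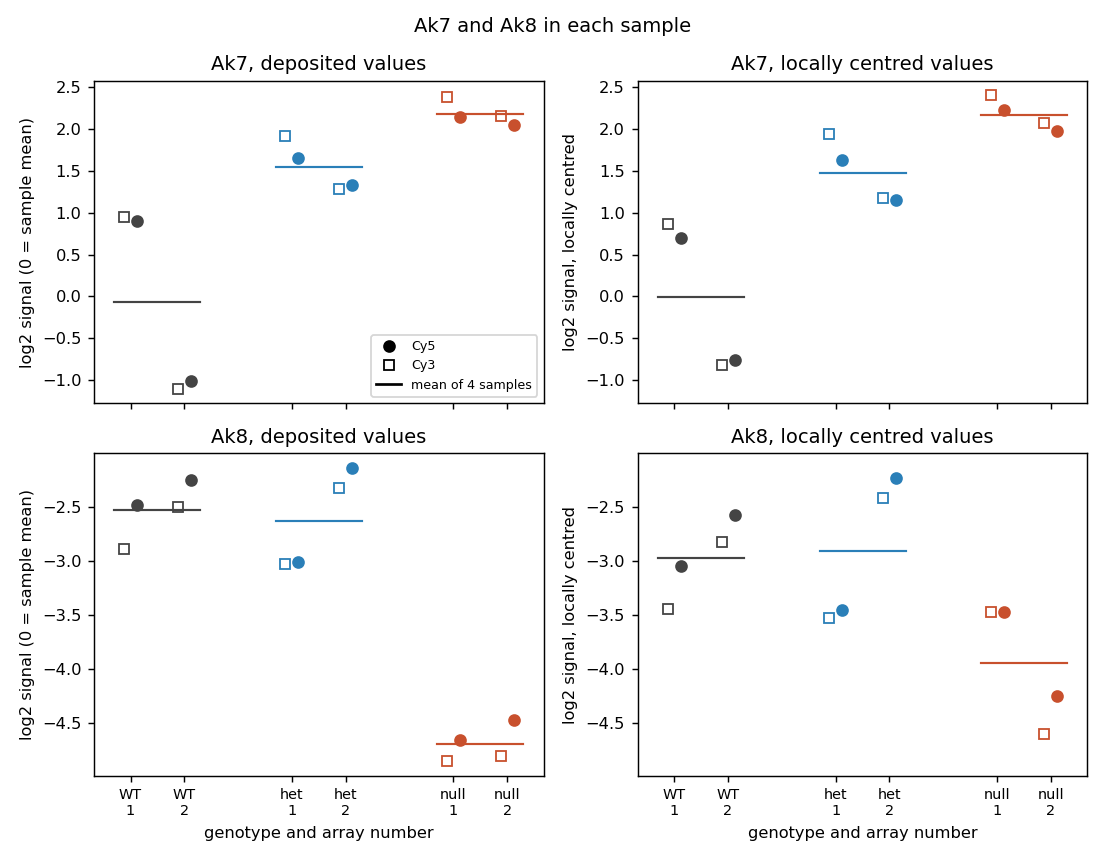
Log2 signal of Ak7 (top) and Ak8 (bottom) in each of the 12 samples, as deposited (left, relative to the sample mean) and after local centring (right), by genotype and array, with Cy5 samples filled, Cy3 samples open and the mean of the 4 samples as a line. The 2 colours of an array lie together, wildtype arrays 1 and 2 are 1.98 apart for Ak7, and Gja9_null array 1 moves from -4.75 to -3.47 for Ak8 on centring.

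Other ways of setting the samples on a common scale left Ak7 in place and moved Ak8. Between Gja9_null and wildtype, Ak7 differed by 2.19 under quantile normalization and 2.24 under cyclic loess. Ak8 differed by -1.38 and -1.44. Quantile normalization followed by local centring, chosen after seeing the data, gave 2.03 ± 0.39 for Ak7 and -0.49 ± 0.40 for Ak8. With local centring and Gja9_null array 1 left out, also chosen after seeing the data, Ak8 differed by -1.41 ± 0.41. No setting turned the sign of either gene between Gja9_null and wildtype, the contrast that selected both, so this is a description. For Ak8 the part of dim signal and that of the stretch of probe numbers were not tested apart.

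**Figure D3:**
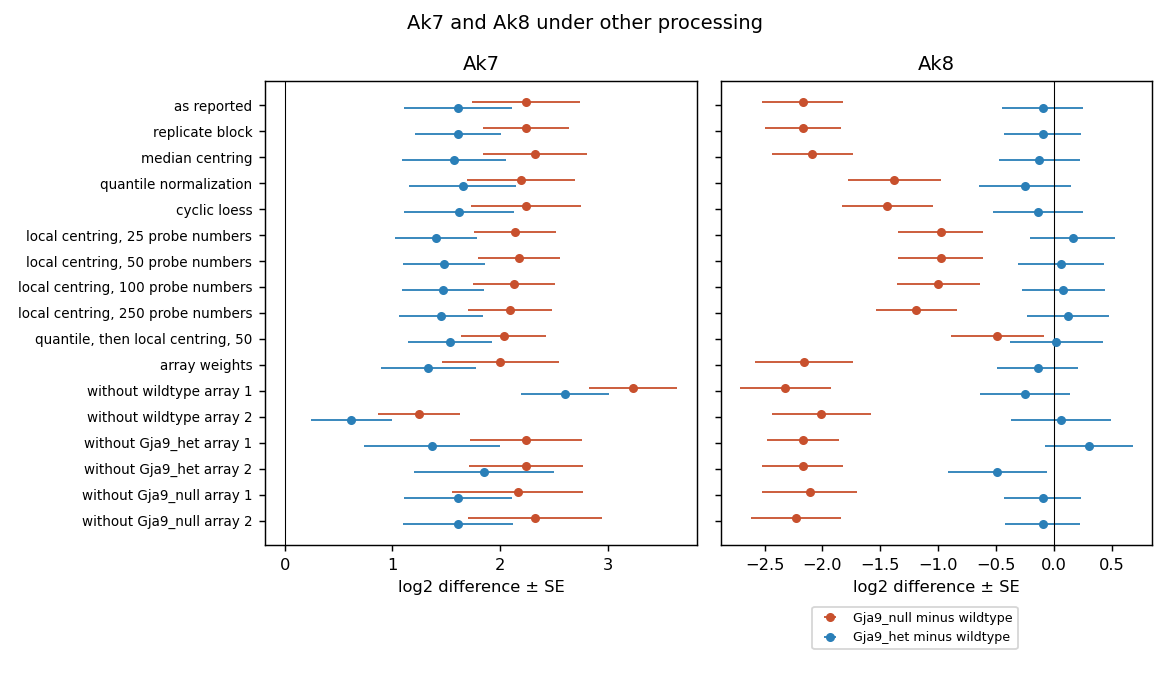
Log2 difference from wildtype (point) with its SE (bar) for Ak7 (left) and Ak8 (right) in Gja9_null and Gja9_het under the processing named at each line. The Gja9_null value of Ak7 lies between 1.25 and 3.23, at its extremes when a wildtype array is left out, and that of Ak8 moves from -2.17 to between -1.44 and -0.49 under quantile, loess or local scaling.

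Ak3 was the other adenylate kinase with values. It encodes the enzyme of the mitochondrial matrix that uses GTP, and 2 probes read it. Ak4 has 3 probes without values. The first Ak3 probe (number 26635) had means of 0.77 ± 0.39 (SD, n = 4) in wildtype, 1.24 ± 0.75 in Gja9_het and 0.31 ± 0.71 in Gja9_null. The second (28285) had -2.01 ± 0.35, -2.36 ± 0.24 and -3.03 ± 0.64. The neighbours of the first had a median difference of -0.45 between Gja9_null and wildtype and those of the second of -0.54. The probes averaged, Ak3 differed from wildtype by -0.74 ± 0.40 (SE) in Gja9_null (limma adjusted p = 0.518) and by 0.06 ± 0.40 in Gja9_het (limma adjusted p = 1). After local centring the difference in Gja9_null was -0.19 ± 0.22 (limma adjusted p = 0.729).

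Other enzymes that make nucleotides or pass phosphate between them had a median near that of all features. Of 50 listed, 24 were measured, and 0 passed in either direction in any comparison with limma. The share of all features that passed was 0.326% between Gja9_null and wildtype (0.116% higher and 0.21% lower), 0% between Gja9_het and wildtype and 0.273% between Gja9_null and Gja9_het (0.0105% higher and 0.263% lower). At an unadjusted p under 0.05 there were 3, 0 and 2 of the 24, in the same order, where all 9514 features gave 1106, 208 and 1424. The median difference of the list was -0.10 in Gja9_null against wildtype, as over all features (-0.10), and 0.09 in Gja9_het (0.03 over all features). Gmps, of GMP synthesis, differed by -0.77 ± 0.27 (SE) in Gja9_null, where its 2 probes disagreed at -1.81 and 0.26. Dtymk, thymidylate kinase, differed by -1.10 ± 0.39 and Paics by -0.96 ± 0.42. After local centring these were -0.62, -0.46 and 0.22, so that Paics, whose probe adjoins that of Ak8 by 2 numbers, changed sign. Nt5c3, a pyrimidine nucleotidase gene, differed by 0.53 ± 0.26.

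Genes of the motile cilium, the structure Ak7 and Ak8 are known from, had medians near 0. Of 103 listed, 12 were measured and 0 passed in any comparison with limma, with 1 at an unadjusted p under 0.05 between Gja9_null and wildtype, 1 between Gja9_het and wildtype and 2 between the mutants, next to those 1106, 208 and 1424 of all features. Their median difference was -0.01 in Gja9_null and 0.03 in Gja9_het, with 6 positive and 6 negative in each. Rsph3b, of the radial spoke, differed by 0.87 ± 0.36 (SE) in Gja9_null and 0.80 ± 0.36 in Gja9_het with limma adjusted p of 0.377 and 1. Morn2 differed by 0.71 ± 0.34, the axonemal dynein heavy chain gene Dnah9 by -0.69 ± 0.34 and the dynein light chain gene Dnal4 by -1.0 ± 0.53 in Gja9_null. After local centring Dnah9 stood at 0.16 and Dnal4 at -0.29.

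The 19 measured of 68 genes of intraflagellar transport and the cilium base had medians of -0.05 in Gja9_null and -0.04 in Gja9_het, with 0 passing in limma and 0 at an unadjusted p under 0.05 in any comparison. Dync2li1, of the retrograde transport motor, differed by -0.85 ± 0.45 in Gja9_null and by -0.03 after local centring. Tulp3 differed by -0.54, Ift43 by -0.56 and B9d2, of the transition zone, by -0.57, and after local centring by 0.09, 0.10 and -0.99.

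Markers of the cells that carry motile cilia were thinly covered. Only 2 of 15 ependymal markers had values, Cd24a and Mia, and Foxj1, the regulator of motile cilia, was not among them. They differed by -0.25 ± 0.33 and -0.63 ± 0.36 in Gja9_null. Of 15 choroid plexus markers 4 had values, with a median of -0.58 in Gja9_null and -0.01 in Gja9_het. Ttr, the transthyretin gene, differed by 0.50 ± 0.34, Slc4a5 by -0.74 ± 0.33, Sostdc1 by -0.80 ± 0.45 and Aqp1 by -0.43 ± 0.80. None of these markers passed with limma, where 0.326% of all features did between Gja9_null and wildtype. The part of these cells in the values of Ak7 and Ak8 was not tested.

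**Figure D4:**
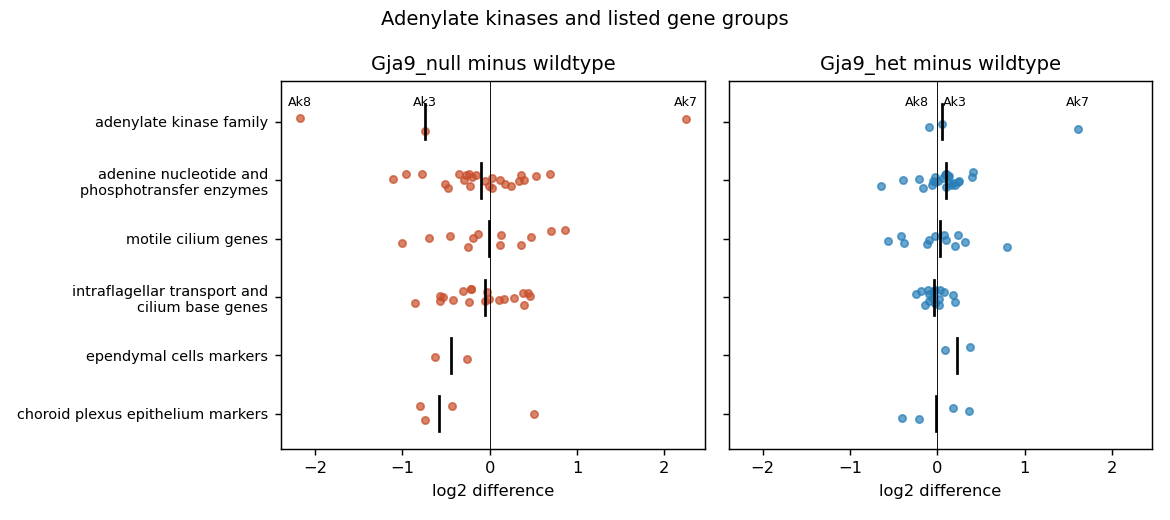
Log2 difference from wildtype of each measured gene (point) in the adenylate kinase family and 5 further lists, for Gja9_null (left) and Gja9_het (right), with the list median as a bar. The listed enzymes and cilium genes lie between -1.10 and 0.87 in Gja9_null. Ak8 at -2.17 and Ak7 at 2.24 lie outside that range, which their selection in this contrast favoured.

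Markers of other brain cells gave the setting. Neuronal markers were measured for 8 of 16 genes. In wildtype the microtubule protein gene Map2 had a level of 2.58 ± 0.29 (SD, n = 4), the neurofilament genes Nefl and Nefm 2.01 ± 0.23 and 1.63 ± 0.09, and the synaptic vesicle gene Syt1 0.19 ± 0.58, while the myelin gene Mbp stood at 3.57 ± 0.18. Nefm differed by -1.74 ± 0.53 (SE) in Gja9_null (limma adjusted p = 0.217) and by -0.83 after local centring. Syt1 differed by -0.77 ± 0.58, Map2 by -0.30 ± 0.34 and Nefl by 0.23 ± 0.38. Fabp7, a fatty acid binding protein gene of radial glia and astrocytes, differed by 1.66 ± 0.67 in Gja9_null (limma adjusted p = 0.363) and by 1.75 ± 0.67 in Gja9_het (limma adjusted p = 1), with a wildtype SD of 1.71. As for Ak7, both differences were positive and the wildtype samples lay far apart. Slc1a3, a glial glutamate transporter gene, differed by 0.90 ± 0.31 in Gja9_null (limma adjusted p = 0.288). Alas2, of heme synthesis in red cell precursors, differed by -1.45 ± 0.34 in Gja9_null (limma adjusted p = 0.107) and by -0.20 after local centring. Medians of the Gja9_null difference were -0.08 over the neuronal markers, 0.09 over 6 astrocyte, -0.64 over 5 oligodendrocyte, -0.21 over 4 microglial, 0.05 over 6 endothelial and pericyte and 0.17 over 3 erythroid markers. After local centring they were -0.03, 0.28, -0.27, -0.13, -0.21 and 0.0 in the same order. In Gja9_het the medians of these lists lay between -0.17 and 0.11. Over all 12 lists, 94 genes besides Ak7 and Ak8 were measured and 0 passed with limma between Gja9_null and wildtype, with 10 at an unadjusted p under 0.05 (1106 of 9514 features in all). For Gja9_het these were 0 and 2 (208 in all), and for Gja9_null against Gja9_het 0 and 13 (1424 in all). After local centring 0 passed in each, where 56, 1 and 134 of all features passed. The unadjusted counts of listed genes were then 19, 4 and 18. All features were not counted in that way on this scale, so these counts are no result about the lists.

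The genes whose values followed Ak7 most closely were picked by that likeness, so what they share with it, the low wildtype array 2 included, is a description. Over the 12 samples, with 6426 genes compared, Dct, an enzyme gene of melanin synthesis, had a Pearson r of 0.983 and Slc7a6, an amino acid transporter gene, 0.978. Bhlhe40, a transcriptional repressor linked to the circadian clock, had 0.970, Rab11b, of recycling endosomes, 0.957 and Cul7, a ubiquitin ligase scaffold, 0.953. Dct stood at -0.19 and -2.11 on the wildtype arrays, 0.34 and -0.30 on the Gja9_het arrays and 0.98 and 0.49 on the Gja9_null arrays. The samples of an array share its hybridisation, so these are 6 array profiles more than 12 separate points. After local centring r was 0.980 for Dct, 0.962 for Slc7a6, 0.915 for Bhlhe40, 0.938 for Rab11b and 0.739 for Cul7.

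The genes most like Ak8 were Tmem176a, a membrane protein gene, with an r of 0.979 over the 12 samples, Helz2, a helicase gene, with 0.976 and Cd79b, of the B cell receptor, with 0.971. Rassf6 and the transcription factor gene Tfap2a both had 0.966. Each was lower in Gja9_null, from -1.80 (Cd79b) to -1.20 (Helz2), and within 0.21 of wildtype in Gja9_het. These genes were picked by their likeness to Ak8, so this shared pattern is a description. After local centring r was 0.853, 0.786, 0.974, 0.873 and 0.928 in the order named, and their differences lay between -1.01 and -0.41. In all, 110 genes had an r over 0.9 with Ak8 as deposited and 32 after local centring, while the number for Ak7 was 33 and 34. Ak7 and Ak8 themselves had an r of -0.68 with each other, and of -0.60 after local centring, over the same 12 samples, a negative sign that their selection for opposite changes fixed.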

How the data were processed

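Total RNA of 12 brains, called biological replicas in the design text, was labelled by direct incorporation of Cy5 or Cy3. The label field was followed for 2 samples where the labelling text has another dye. The deposited values were read as log2 signals relative to each sample's mean signal, since 2 to the power of the value has a mean of 1 in each sample. No source used here states the log base, or the authors' background correction or filters. Sample medians lay between -0.98 and -0.81. Arrays have no depth, and their number limits the precision.

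Probe names came from the platform's table, with symbols updated by gene number through a RefSeq gene table (GRCm38.p6). It names 1 gene for 10356 probes with values, several for 560 and none for 2527. Probes of 1 gene were averaged, giving 9514 features. Which samples shared an array was read from the values: the difference of samples 1 and 3 correlated with that of samples 2 and 4 at 0.940, 0.919 and 0.933 in wildtype, Gja9_het and Gja9_null, so 1 and 2 were paired, and 3 and 4. All genotypes were fitted in one model (limma 3.58.1, R 4.3.3, lmFit and eBayes, two-sided) with terms for genotype and dye, and arrays as a random block (consensus correlation 0.927). P-values were Benjamini-Hochberg adjusted over all features and called under 0.05. The fit and local centring were tested on simulated data. Figures were drawn with matplotlib 3.10.9.

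Ak7 and Ak8, the lists and the rules were chosen with earlier results of these data known. Named genes are both members, the other measured adenylate kinase, up to 4 genes per list of smallest unadjusted p between Gja9_null and wildtype, the 5 genes of highest Pearson r with each member, and genes among the 5 nearest in probe number on either side. Alternatives covered the array block and pairing, the replicate number, dye, normalization, local centring, the samples fitted, dim probes, probe averaging, the spread model, the threshold, and each sample or array left out.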

Additional observations from a re-analysis of the deposited data

How the results depend on the processing

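Ak7 kept its direction in every comparison under all alternatives, and so did Ak8 in both comparisons of Gja9_null. The difference of Ak7 between Gja9_het and wildtype passed in 2 settings: 1.61 with samples 1 and 4, and 2 and 3, taken to share an array, and 2.60 without wildtype array 1, where wildtype is 1 array assumed to vary like the other genotypes. Its limma adjusted p ranged from 6.83e-08 (that other pairing) to 1. That pairing is not the one read from the values, with correlations of 0.94, 0.919 and 0.933, so its p is no support. Between Gja9_null and wildtype Ak7 was 3.23 without wildtype array 1, 1.25 without array 2, and 1.41 without array 2 on locally centred values, a setting added after the data were seen.

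Ak8 in Gja9_het against wildtype turned from -0.10 to 0.06, 0.16, 0.08 and 0.12 under local centring over 50, 25, 100 and 250 probe numbers, to 0.06 with array means as well, to 0.06 without wildtype array 2 and to 0.30 without Gja9_het array 1. It was 0.02 after quantile normalization and local centring, 0.35 after local centring without wildtype array 2 and 0.11 without Gja9_null array 1, all chosen after seeing the data. None of these passed with limma.

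Between Gja9_null and wildtype Ak8 moved to -1.38 (quantile), -1.44 (cyclic loess), -0.98, -0.98, -1.0 and -1.19 (local centring over 50, 25, 100 and 250 numbers), -0.98 (with array means), and, chosen after seeing the data, -0.49 (quantile and local centring), -0.69 (local, without wildtype array 2) and -1.41 (local, without Gja9_null array 1). Against Gja9_het it moved to -1.13, -1.30, -1.04, -1.13, -1.08, -1.31, -1.04, -0.51, -1.04 and -1.52 in the same order of settings, and to -2.46 without Gja9_het array 1 and -1.67 without array 2. Without the dimmest 25% of probes Ak8 was not tested, being among them. The causes were not tested.

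The replicate block gave 1.61 for Ak7 and -0.10 for Ak8 between Gja9_het and wildtype and changed no call of either. Same-numbered samples of different genotypes correlated between -0.09 and 0.23, with 4 of 12 pairs over 0.1, so numbers were not taken to pair samples. Leaving out each sample in turn gave 1.54 to 1.66 for Ak7 and -0.15 to -0.03 for Ak8 in Gja9_het against wildtype, and 2.17 to 2.29 and -2.22 to -2.12 in Gja9_null. The count of all features called was 0 between Gja9_het and wildtype, 31 between Gja9_null and wildtype and 26 between the mutants. It was 70, 1464 and 2119 with no array block, and 5747, 7122 and 7543 under the other pairing, which is not the one read from the values. It was 0, 2 and 0 on array means and 0, 45 and 44 with the replicate block. It was 1, 56 and 134 under local centring over 50 numbers, 0, 5 and 0 under quantile normalization, 0, 8 and 0 under cyclic loess, 0, 3 and 1 with only 2 genotypes fitted and 0, 7 and 0 without dim probes. Leaving out a sample gave 0, 13 to 25 and 0 to 20, and leaving out an array 0 to 19, 5 to 781 and 0 to 804, the highest for Gja9_null array 2 (wildtype array 2 for the first).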
